A study of Trachemys scripta with 4 samples.

Results

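The 6 genes described here, MBP, PMP22, CNP, PLLP, MAG and TMEM98, were chosen by symbol as genes of the myelin sheath, and all 6 were found among the 15289 genes of the deposited expression table. The working name of the group is compact myelin structural genes, which holds for MBP, PMP22 and PLLP. MAG and CNP are known mainly from the parts of the sheath that are not compacted, and TMEM98 is not a structural protein. The values come from peripheral nerves, taken from the brachial and sacral plexus, of embryos of the turtle *Trachemys scripta* at 2 developmental stages, stage 21 (st.21) and the earlier stage 19 (st.19). Eggs of females injected with oxytocin were incubated at 28 °C, with no further treatment or genetic change in either group. The paper names an mRNA library kit for a batch of nerve tissue and does not say which columns come from it. Each stage is present as 2 columns of values, replicate 1 and replicate 2. Each stage counts as 1 sample in the study, and the tissue is plexus rather than 1 dissected nerve.

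Myelin is the stack of membranes that a Schwann cell winds around a length of axon in the peripheral nerve. As the turns tighten, most cytoplasm is squeezed out, and a small set of proteins holds the membranes together, lines the channels that remain and keeps the innermost turn in contact with the axon. Schwann cells that have not yet begun to wrap already carry some of these messages at a low level in mammals, and the messages climb as wrapping proceeds.

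Levels are in TPM, a measure of transcript abundance that corrects reads for gene length and adds up to 1000000 in every column. They were deposited as log2 values that include a small prior count, and the whole reads behind them could be recovered. Depth came to 2229177 and 2129599 gene reads in the st.21 columns, against 4353821 and 4241655 in the st.19 columns. Over genes with 5 to 500 reads, replicates 1 and 2 differed by less than sampling noise, with a chi-square per gene of 0.323 within st.21 and 0.433 within st.19, where independent sampling gives about 1, and of 16.8 between stages. Both columns were for that reason taken as 1 sample per stage, and whether they are separate libraries is not settled by the labels. This leaves every stage difference without a replicate check and without a p-value. A single ribosomal RNA gene, LOC117869916, differed between the columns of a stage by far more than sampling noise, with 201 and 426 reads at st.21 and 54649 and 176056 at st.19. It took 0.145% and 0.317% of the TPM at st.21 but 18.9% and 44.2% at st.19, and as the total is fixed, the TPM left for all other genes was smaller at st.19, most of all in replicate 2. Changes are therefore also given relative to the median gene, as ratios between genes of the same column, and without that gene.

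The nerve label was checked against 11 markers of Schwann cells and their precursors, of which 10 were analysed. SOX10, the transcription factor that defines the lineage, had 329 and 333 TPM at st.21 and 217 and 146 TPM at st.19. ERBB3, the receptor for axonal neuregulin, had 297 and 293 TPM at st.21 and 192 and 132 TPM at st.19. In mean log2 TPM, 5 of the 10 were higher at st.21, SOX10 and ERBB3 among them, and 5 were lower. No marker of the 10 was without reads in any column, and their summed level was 3489 and 3357 TPM at st.21 and 3365 and 2223 TPM at st.19.

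PMP22 and MBP, the major compact myelin genes of the group, were already among the most abundant messages at st.19 and remained so at st.21. PMP22 encodes a multi-pass membrane glycoprotein of compact peripheral myelin, whose gene is duplicated in the most common inherited demyelinating neuropathy in humans. It lies on chromosome 14 of the CAS_Tse_1.0 assembly, from 13678205 to 13709487, and was counted over 2563 nt of exons from 2 RefSeq transcripts. PMP22 had 457 and 455 TPM in the st.21 columns, from 1071 and 1025 reads, and 325 and 227 TPM in the st.19 columns, from 1575 and 1516 reads. Among all 15289 genes it ranked 271 and 267 from the top at st.21 and 319 and 316 at st.19. The ranks, which do not depend on how a column is scaled, thus shifted little between the stages.

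MBP encodes a cytoplasmic protein that glues the inner faces of the myelin membrane together. It lies on chromosome 2 from 183793663 to 183980164, a span of 186502 nt of which 2602 nt were counted, from 4 transcripts. In mammals the same locus also yields longer transcripts used outside myelin, and the gene-level values do not part such forms. MBP had 286 and 290 TPM at st.21, from 679 and 664 reads, and 224 and 159 TPM at st.19, from 1102 and 1076 reads. It ranked 461 and 442 at st.21 and 502 and 473 at st.19. MBP was thus 16.4 and 16.7 times the median gene of its column at st.21 and 10.9 and 11.2 times at st.19.

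CNP, the phosphodiesterase gene that in mammals serves to keep cytoplasmic channels open within the sheath, stood at an intermediate level and had the log2 fold change of smallest size in the values as deposited, though not after quantile normalization or without LOC117869916. It lies on chromosome 23 from 14349211 to 14358163 and was counted over 1750 nt. CNP had 62.0 and 64.4 TPM at st.21, from 98 reads in each column, and 53.0 and 38.1 TPM at st.19, from 173 and 171 reads. Its rank was 2572 and 2452 at st.21 and 3162 and 2992 at st.19.

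PLLP encodes plasmolipin, a proteolipid with a MARVEL domain that is found in compact myelin and takes part in membrane sorting. It lies on chromosome 13 from 37211223 to 37236466, with 1 transcript counted over 1694 nt. PLLP had 122 and 128 TPM at st.21, from 188 and 190 reads, and 52.0 and 34.1 TPM at st.19, from 164 and 148 reads. It held rank 1225 and 1145 at st.21, against 3238 and 3424 at st.19. The st.21 columns thus gave more PLLP reads than the st.19 columns despite their lower depth.

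MAG had the lowest TPM of the 6 in every column and the largest change. It encodes a sialic acid-binding lectin of the membrane that faces the axon, where it takes part in contact between glia and axon. MAG lies on chromosome 24 from 852291 to 873951 and has the longest counted sequence of the group, 5212 nt from 4 transcripts. It had 30.9 and 30.5 TPM at st.21, from 146 and 139 reads, and 2.62 and 1.89 TPM at st.19, from 23 reads in each column. At st.19 it ranked 13722 and 13652 of 15289 genes, well under the median gene, and at st.21 it ranked 5009 and 5043, above the median gene by 1.77 and 1.76 times.

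TMEM98 encodes a single-pass membrane protein that in mouse oligodendrocytes binds the myelin regulatory factor MYRF and holds back its cleavage. It lies on chromosome 23 from 2476540 to 2495114 and was counted over 1392 nt from 5 transcripts. TMEM98 had 42.6 and 46.6 TPM at st.21, from 53 and 56 reads, and 10.9 and 8.75 TPM at st.19, from 26 and 29 reads. It ranked 3773 and 3476 at st.21 and 10316 and 9783 at st.19. No other annotated gene overlaps the span of any of the 6 members.

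**Figure D1:**
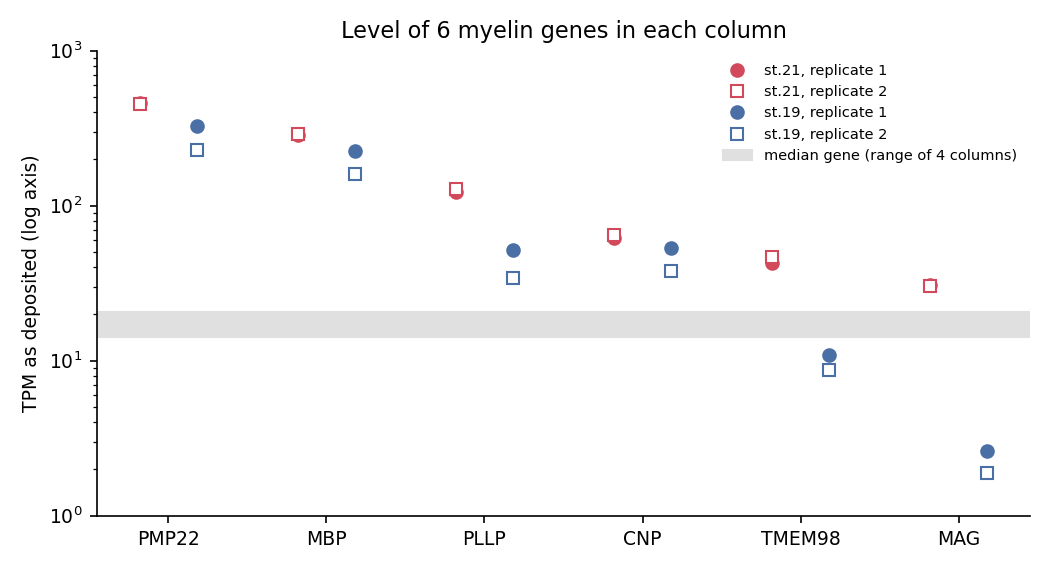
TPM as deposited (log axis) of the 6 myelin genes in each column, with st.21 in red to the left of st.19 in blue, replicate 1 filled and replicate 2 open, and the range of the median gene over the 4 columns in grey (14.2 to 20.5 TPM). PMP22, MBP, PLLP and CNP lie above the median gene at both stages, while TMEM98 and MAG lie above it at st.21 and under it at st.19.

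The order of levels was PMP22, MBP, PLLP, CNP, TMEM98 and MAG at st.21, and PMP22, MBP, CNP, PLLP, TMEM98 and MAG at st.19. Intervals (95%, exact binomial) on reads per length within a column, which cover counting error only, parted most neighbours. PLLP was 1.98 times CNP in replicate 1 of st.21, with an interval from 1.54 to 2.56, and 2.003 times in replicate 2. At st.19 CNP and PLLP were not parted, with a ratio of CNP to PLLP of 1.02 (0.82 to 1.27) in replicate 1 and 1.12 (0.892 to 1.40) in replicate 2. TMEM98 and MAG, 4.23-fold apart in replicate 1 of st.19 (2.32 to 7.76), were 1.36-fold apart in replicate 1 of st.21, where the interval from 0.973 to 1.87 included equal levels. In replicate 2 of st.21 the ratio of TMEM98 to MAG was 1.51 (1.09 to 2.07), and there it was CNP and TMEM98 that were not parted (1.39, 0.992 to 1.97).

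In all 6 members both st.21 columns lay above both st.19 columns, which was the case for 38.9% of the 15100 genes analysed (those reaching 1 TPM in 2 or more columns). MAG, TMEM98 and PLLP, 3 of the 6, had a log2 fold change above 1, against 17.3% of all genes, and no member had one below −1, against 9.68%. The members' median log2 fold change was 1.16 and that of all genes 0.06. With limma (trend, Benjamini-Hochberg adjusted p under 0.01 and log2 fold change above 1) on the columns, which does not compare stages, the same 3 members were called, against 14.4% of genes, and 2 with a replicate block, MAG and TMEM98, against 7.84% of genes. An exact binomial test of replicate 1 reads at those limits also called the 3, against 12.3% of genes. As these members were picked with results of the data known, their shared direction is a description. In bulk nerve, a larger share of cells that carry a message and more of the message per cell cannot be told apart.

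MAG had a log2 fold change of 3.79 in st.21 over st.19 (13.8-fold), or 3.72 relative to the median gene, and only 0.311% of genes had a larger one. Between the replicate 1 columns the log2 ratio of reads, scaled to TPM, was 3.72 with a 95% exact binomial interval from 3.08 to 4.42, and between the replicate 2 columns it was 4.16 (3.52 to 4.87). The prior count in the deposited values understates the change of a gene with 23 reads, and without it the log2 fold change of MAG was 3.94. TMEM98 had a log2 fold change of 2.19 (4.56-fold), or 2.13 relative to the median gene. Its interval was 1.38 to 2.81 in replicate 1 and 1.84 to 3.21 in replicate 2. PLLP had a log2 fold change of 1.57 (2.97-fold), or 1.51 relative to the median gene, with intervals of 0.94 to 1.56 in replicate 1 and 1.61 to 2.25 in replicate 2. Of all genes analysed, 2.69% changed by more than TMEM98 and 7.05% by more than PLLP.

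PMP22, MBP and CNP changed less than MAG, TMEM98 and PLLP. PMP22 had a log2 fold change of 0.75 and MBP one of 0.61, which came to 0.69 and 0.55 relative to the median gene. In replicate 1 the interval was 0.38 to 0.61 for PMP22 and 0.21 to 0.49 for MBP, while in replicate 2 it was 0.88 to 1.12 for PMP22 and 0.73 to 1.01 for MBP. The intervals of the 2 replicates did not overlap for either gene, nor for PLLP, and the columns also differ in the share taken by LOC117869916. All these intervals are on the TPM scale that includes LOC117869916, and none without it is given here. CNP had a log2 fold change of 0.49, or 0.43 relative to the median gene, and its interval was −0.14 to 0.60 in replicate 1 and 0.39 to 1.13 in replicate 2. A larger change was found in 24.3% of genes for PMP22, in 28.7% for MBP and in 32.7% for CNP.

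**Figure D2:**
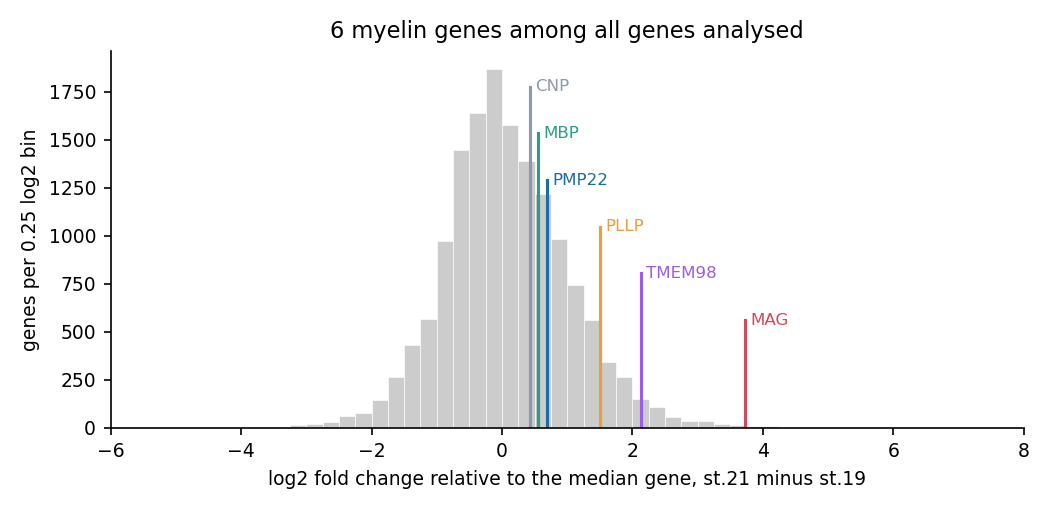
Number of genes (vertical axis) by log2 fold change relative to the median gene, st.21 minus st.19 (horizontal axis, bins of 0.25), for the 15100 genes analysed, with a line at the value of each myelin gene. CNP, MBP and PMP22, at 0.43, 0.55 and 0.69, lie within the bulk of genes, while PLLP at 1.51, TMEM98 at 2.13 and MAG at 3.72 lie in the upper tail.

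How far PMP22, MBP and CNP differed between the stages depended on the total they were set against. With LOC117869916 left out of the TPM total, the st.19 columns came close to each other. MBP then had 286 and 291 TPM at st.21 and 276 and 285 TPM at st.19, and its log2 fold change came to 0.04. PMP22 had 458 and 456 TPM at st.21 and 400.5 and 407 TPM at st.19, a log2 fold change of 0.18. CNP changed sides, with 62.1 and 64.6 TPM at st.21 and 65.4 and 68.2 TPM at st.19, a log2 fold change of −0.077. On the same scale MAG had 30.9 and 30.6 TPM at st.21 and 3.23 and 3.39 TPM at st.19, TMEM98 had 42.7 and 46.8 TPM at st.21 and 13.5 and 15.7 TPM at st.19, and PLLP had 122 and 129 TPM at st.21 and 64.1 and 61.2 TPM at st.19. On that scale the log2 fold change was 3.22 for MAG, 1.62 for TMEM98 and 1.002 for PLLP. The median of all genes came to −0.52 on this scale, with 1070 genes above 1 and 4183 below −1, against 2605 and 1461 in the values as deposited. Relative to that median MBP was at 0.56, PMP22 at 0.70 and CNP at 0.44, values that rescaling a column leaves nearly unchanged. After quantile normalization, MBP was at 0.16, PMP22 at 0.28 and CNP at 0.33 relative to the median gene. In CPM, a read share with no length term and no prior count that was added after seeing the data, the log2 fold changes were 0.28 for MBP, 0.42 for PMP22, 0.17 for CNP, 1.26 for PLLP, 3.61 for MAG and 1.97 for TMEM98.

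**Figure D3:**
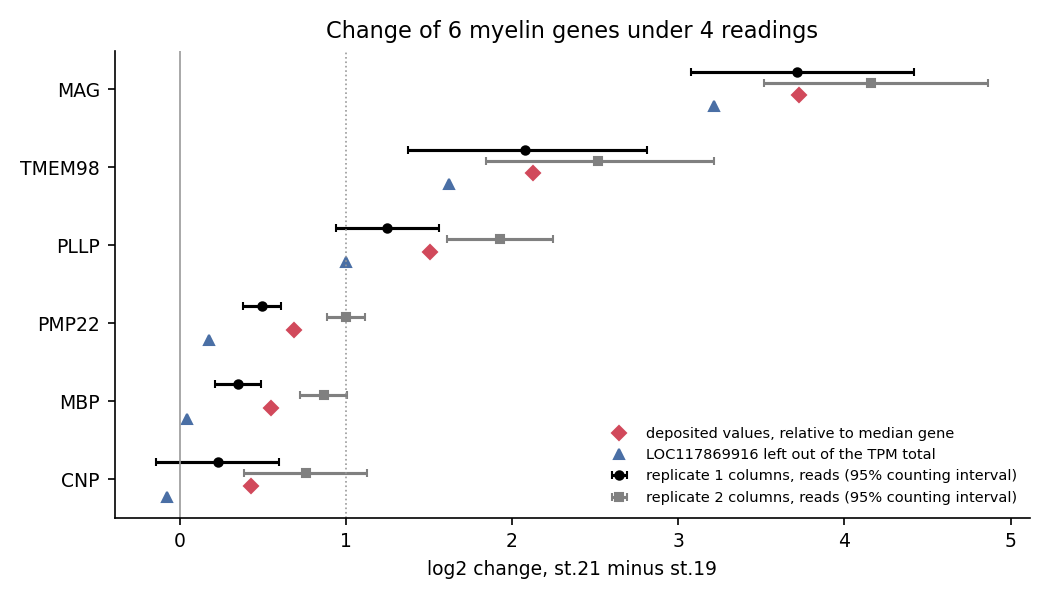
Log2 change of each myelin gene, st.21 minus st.19, from the reads of the replicate 1 columns (black) and replicate 2 columns (grey) scaled to TPM, with 95% counting intervals, from the deposited values relative to the median gene (red) and with LOC117869916 left out of the TPM total (blue). MAG, TMEM98 and PLLP lie at or above 1, apart from the lower end of a PLLP interval (0.94), while PMP22, MBP and CNP lie lower, with CNP at −0.077 when LOC117869916 is left out.

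Ratios between 2 members within a column do not depend on the total. Ratios among MBP, PMP22, CNP and MAG were close in the 2 columns of a stage. Some others differed more, such as PLLP to TMEM98, at 4.75 and 3.90 at st.19. For each MAG TPM there were 9.25 and 9.51 MBP TPM at st.21 and 85.6 and 84.0 MBP TPM at st.19. These values include the prior count, which lowers ratios to MAG most at st.19, where MAG had 23 reads in each column. The log2 ratio of MBP to MAG changed by −3.18, and by −3.33 without the prior count. In the reads of replicate 1 it changed by −3.36 (95% conditional exact interval −4.08 to −2.71). The ratio of PMP22 to MAG was 14.8 and 14.9 at st.21 and 124 and 120.0 at st.19. MBP and PMP22 differed little in proportion, at 0.625 and 0.638 MBP per PMP22 at st.21 and 0.69 and 0.70 at st.19, with an interval for the change of −0.32 to 0.04 that included 0. The ratio of MBP to CNP was 4.61 and 4.51 at st.21 and 4.23 and 4.18 at st.19, with an interval of −0.27 to 0.52. PMP22 per CNP was 7.38 and 7.06 at st.21 and 6.13 and 5.97 at st.19, a 1.19-fold difference with an interval of −0.12 to 0.65 on the log2 scale.

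Of all 15 pairs, 12 had an interval in replicate 1 that excluded 0, and 11 had one in both replicates, which come from the same sample and are no independent check of each other. These intervals were not adjusted for the number of pairs. The 3 pairs whose interval included 0 were those among MBP, PMP22 and CNP, which does not show that their proportions were equal. The columns of the stages did not overlap for any of the 15 pairs. As the 2 columns of a stage are 1 sample, this cannot decide whether a proportion changed. Neither this non-overlap nor the counts of intervals was set against all gene pairs, so they are not called particular to these members. The pair that parted in replicate 1 only was PLLP and TMEM98, whose log2 ratio changed by −0.62 (replicate 1 interval −1.63 to −0.05, replicate 2 interval −1.36 to 0.16). MAG was also higher relative to TMEM98, with 0.725 and 0.655 MAG per TMEM98 at st.21 and 0.239 and 0.217 at st.19, a change of the log2 ratio by 1.60 (replicate 1 interval 0.64 to 2.64). PLLP, TMEM98 and MAG were each higher at st.21 relative to MBP, PMP22 and CNP, with intervals that excluded 0 in all of these pairs.

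Expressed as shares of the summed TPM of the 6 genes, PMP22 held 45.7% and 44.8% at st.21 and 48.7% and 48.4% at st.19, and MBP held 28.6% in both st.21 columns and 33.6% and 33.9% at st.19. CNP held 6.19% and 6.34% at st.21 and 7.94% and 8.12% at st.19. PLLP held 12.2% and 12.6% at st.21 and 7.79% and 7.27% at st.19. MAG, the smallest share, held 3.09% and 3.01% at st.21 and 0.392% and 0.404% at st.19, and TMEM98 held 4.26% and 4.597% at st.21 and 1.64% and 1.86% at st.19. The columns of a stage differed by under 1 percentage point for each gene.

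**Figure D4:**
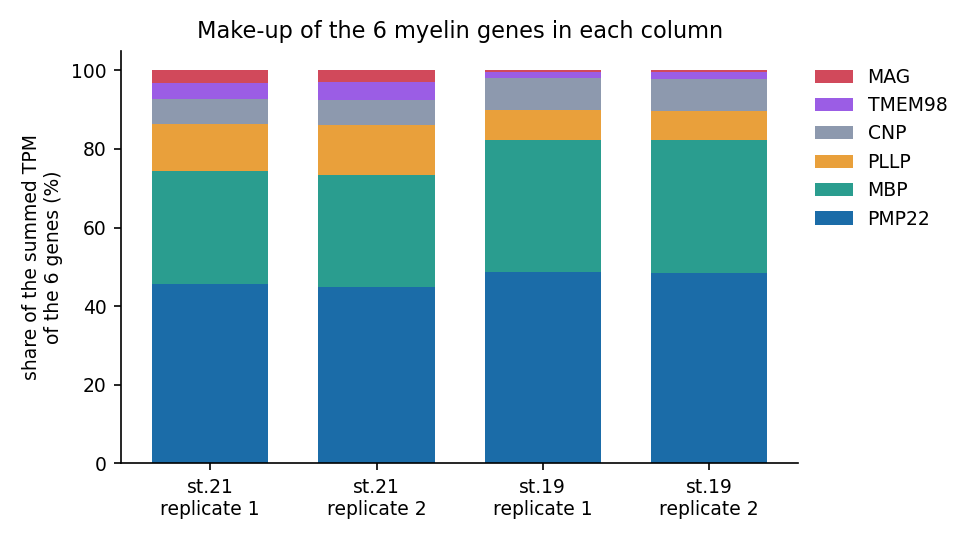
Share of each gene in the summed TPM of the 6 myelin genes (percent, stacked to 100) in the st.21 columns at the left and the st.19 columns at the right. PMP22 and MBP fill most of every bar, and the bands of PLLP, TMEM98 and MAG are wider at st.21 (12.2%, 4.26% and 3.09% in replicate 1) than at st.19 (7.79%, 1.64% and 0.392% in replicate 1).

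For MBP, an abundant member with a small change, and MAG, the member with the largest change, the study lists quantitative PCR primers (5′ to 3′, all in lower case), shown as the designed oligos that identify these messages. Their positions within the genes and the PCR values were not analysed here.
qMBP F: cagtccattgctgggacctt
qMBP R: tatgactgggacagcaggga
qMAG F: acagcaacctggagatcatcg
qMAG R: atggtggggcagttatccg

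Other myelin proteins were spread in their changes, as were the 6 members, whose log2 fold changes ran from 0.49 to 3.79. Of a list of 22 genes, 16 were analysed, 4 of them had a log2 fold change above 1 and 1 below −1, and their median was −0.10, against 0.06 for all genes. Among all genes 17.3% were above 1 and 9.68% below −1. GJB1, the gap junction protein connexin of uncompacted myelin, was nearest to MAG in size of change. GJB1 had 70.6 and 66.2 TPM at st.21 and 9.42 and 6.66 TPM at st.19, a log2 fold change of 3.11. CLDN19, a tight junction claudin of Schwann cells, had 174 and 192 TPM at st.21 and 24.4 and 20.3 TPM at st.19, a log2 fold change of 3.04. SIRT2, a deacetylase found in myelin, had a log2 fold change of 1.20. Of the 16 genes, 7 were higher at st.21 and 9 lower, the lowest being TPPP at −1.13 and DRP2 at −0.997.

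Relatives of the members by protein family were set beside them, and beside the 17.3% of all genes above 1 and 9.68% below −1. Of 6 PMP22 relatives, 5 were analysed and 2 were above 1, with a median of 0.72. EMP3 and PERP were the ones above 1, at 1.63 and 1.39, and TMEM47 was at 0.72. PMP22, at 0.75, thus lay near the median of its relatives. Of 15 genes of MARVEL domain and similar proteins, the family of PLLP, 10 were analysed, with 2 above 1, 2 below −1 and a median of 0.13. SYPL2, known from the membranes of skeletal muscle, was at 2.36, MARVELD2, a tricellular junction protein, at −2.29 from 3 reads in each st.21 column and 48 in each st.19 column, and MARVELD3 at 1.12 from 2 or 3 reads in every column.

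Genes that handle or regulate the members had list medians under the members' median of 1.16, though single genes changed by more than some members. Of 8 genes for the processing and transport of MBP and MAG messages, 7 were analysed and 0 were above 1 or below −1, with a median of −0.37. For this list and the next 2, the shares over all genes were 17.3% above 1 and 9.68% below −1. HNRNPA2B1, which in rodent oligodendrocytes carries MBP message in transport granules, was at −0.60, KIF1B, a motor needed for MBP message transport in zebrafish, at −0.59, and the kinase gene FYN at −0.37. QKI, whose protein binds MBP and MAG messages and governs MAG splicing, was at −0.01 with 133 and 132 TPM at st.21 and 159 and 111 TPM at st.19. Of 8 gene regulators, 7 were analysed and 1 was above 1, with a median of 0.48. NAB2, a partner of EGR2, was at 1.53, SOX10 at 0.90, and MYRFL, a relative of MYRF, at −0.79 from 2 reads in each st.21 column and 12 and 10 in the st.19 columns. MYRF itself was not analysed here. Of 10 ligand and co-receptor genes of MAG, 9 were analysed, with 1 above 1, 1 below −1 and a median of 0.29. RTN4RL1 was at −1.27, RTN4RL2, a receptor that binds MAG, at 1.08, and B4GALNT1, an enzyme that makes the gangliosides MAG binds, at 0.65.

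Markers of cell types around the nerve moved between the same columns, in which 17.3% of all genes were above 1 and 9.68% below −1. The 11 skeletal muscle markers analysed of 13 were all above 1, with a median of 4.999, and their summed level was 2932 and 2902 TPM at st.21 and 91.8 and 59.6 TPM at st.19. CASQ1 and ACTA1, of the muscle store of calcium and the thin filament, were at 6.93 and 5.85. The 10 fibroblast and perineurium markers had 6 above 1, a median of 1.24 and a summed level of 28055 and 27730 TPM at st.21 and 6006 and 4082 TPM at st.19, led by DPT at 3.31 and COL3A1 at 2.73. The 7 endothelial markers had 4 above 1, a median of 1.21 and a summed level of 166 and 170 TPM at st.21 and 85.8 and 60.6 TPM at st.19, with EGFL7 at 1.96 and ESAM at 1.85. Of 7 immune markers, 4 were analysed, with 2 above 1 (CD74 at 2.90 and MPEG1 at 2.75), a median of 1.84 and a summed level of 103 and 104 TPM at st.21 and 39.4 and 27.3 TPM at st.19. Of the 11 neuron markers, 10 were analysed, with 5 below −1, a median of −0.95 and a summed level of 4834 and 4918 TPM at st.21 and 7711 and 5320 TPM at st.19. The largest changes were those of GAP43 at −1.58 and SYT1 at −1.57. While 8 of the 10 were lower at st.21, 2 abundant ones were higher, NEFL at 0.39 and PRPH at 0.36. The part of these tissues in the values of the 6 members was not tested.

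The Schwann cell markers themselves had a median of 0.08, with 1 of 10 (FOXD3, at 1.11) above 1 and 0 below −1, against 17.3% and 9.68% of all genes. MAG, TMEM98 and PLLP were thus higher at st.21 by more than the median of these markers, while the list as a whole was near the median gene. TFAP2A, a neural crest factor, was at −0.66. Members such as MBP, MAG, CNP and TMEM98 are also known from oligodendrocytes, the glia of the brain and spinal cord. For that reason 9 markers of central glia, of which 3 were analysed, were set beside the members. OLIG1, of the oligodendrocyte lineage, had 10 reads in each st.21 column and 38 and 31 reads at st.19, and a log2 fold change of −0.42. GPR17, of oligodendrocyte precursors, had 12 reads in each st.21 column and 16 and 15 at st.19. GFAP, an intermediate filament gene of astrocytes that is also used by Schwann cells, had 433 and 427 reads at st.21 and 382 and 355 at st.19, a log2 fold change of 1.52. The summed level of the list was 104 and 107 TPM at st.21 and 52.4 and 34.7 TPM at st.19, and none of the 3 was without reads. Most of that sum was GFAP, with 95.1 and 97.4 TPM at st.21 and 40.7 and 27.5 TPM at st.19, so it does not measure central glia. Of 6 epidermal markers 3 were deposited and 1, DSP at 0.74, passed the filter. Their summed level was 4.39 and 4.14 TPM at st.21 and 3.67 and 2.61 TPM at st.19, and TP63 had 1 and 0 reads at st.21 and 5 in each st.19 column.

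**Figure D5:**
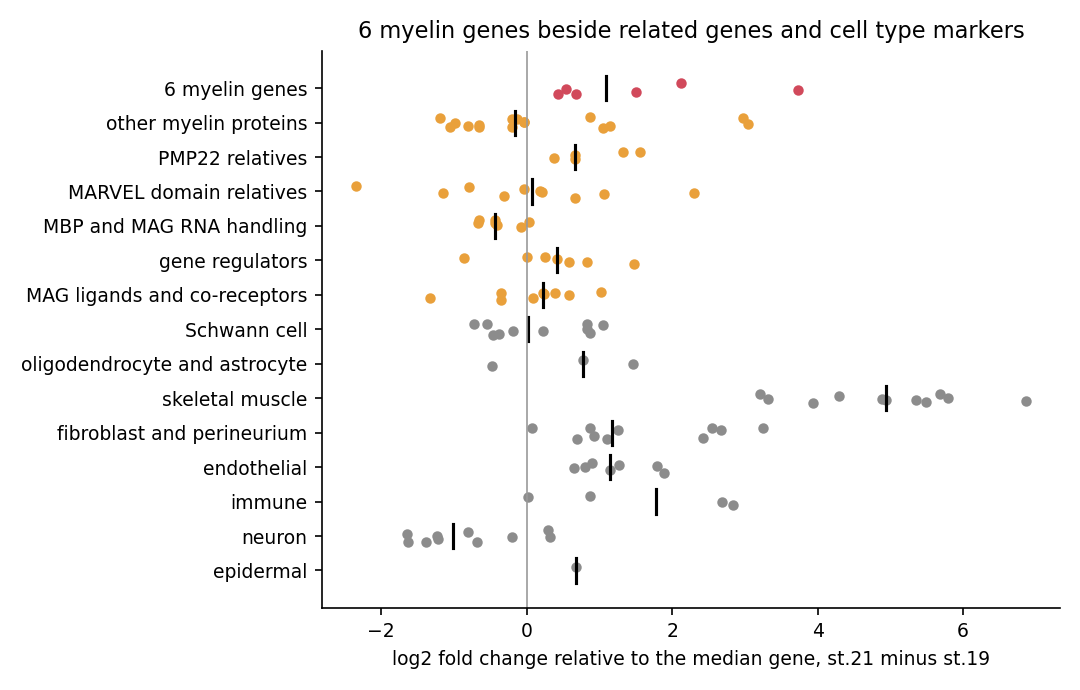
Log2 fold change relative to the median gene, st.21 minus st.19, of each analysed gene (points, with small random vertical offsets) for the 6 myelin genes (red), lists of related genes (orange) and cell type markers (grey), with the median of each list as a black line. The 6 myelin genes (median 1.10) spread from 0.43 to 3.72, the other myelin proteins and Schwann cell markers centre near the median gene (−0.16 and 0.02), and the skeletal muscle markers centre at 4.94.

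The genes most like each member in level and change were found by Euclidean distance in log2 TPM over the 4 columns. Analysed genes whose symbol is a LOC number were left out of this search, so the nearest of all genes is not known. The 4 columns are 2 samples, so many genes can come close. For MBP they were SNRPE, a spliceosome subunit, at a distance of 0.07 and VSTM2L at 0.13, and for PMP22 they were PDIA3, a chaperone of the endoplasmic reticulum, at 0.14 and the annexin gene ANXA5 at 0.17. METTL9 and SNX2 were nearest to CNP, each at 0.07. BRI3 (0.09) and the tubulin gene TUBB6 (0.11) were nearest to PLLP. MAG had more distant neighbours, LDB3 of the muscle Z-disc at 0.34 and MYF6, a muscle transcription factor, at 0.38. WIF1, a secreted Wnt inhibitor, and C1QA, a complement gene of macrophages, were nearest to TMEM98, at 0.19 and 0.25. No member was among the 2 nearest genes of another. The closest members to each other were MBP and PMP22, at 1.20, and CNP and PLLP, at 1.40.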

How the data were processed

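Nerve RNA of 1 sample per stage was analysed, in 2 columns each, grouped by the stage in the sample titles. The authors aligned single-end reads with HISAT2 to CAS_Tse_1.0, counted them with featureCounts, filtered genes on CPM with edgeR 3.42.4 and deposited log2 TPM with a prior count. Strand use in counting is not given in the sources used here. Symbols and positions come from the RefSeq table of the same assembly.

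Whole reads were recovered by finding, per gene, the length up to 150000 nt that makes all 4 values whole (tolerance 0.0001). All values (100%) came out whole, with 1 length for each of 15289 genes, and all 3626 lengths in the study's own listing were matched. In simulated data of 4785 genes 100% were recovered. Intervals (95%) are exact binomial, or conditional exact for ratios, and cover counting error only, since reads without molecular identifiers are not independent molecules. Fold changes are st.21 minus st.19 differences of mean log2 TPM, for genes reaching 1 TPM in 2 or more columns. Genes beyond 1 or −1 on that scale count as called, the fold threshold in the study's methods.

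The members and gene lists were chosen with earlier results of these data known. Genes named are the 6 members, in each related list the 3 with the largest change, and up to 2 per marker list. The 2 nearest genes of each member, sought without LOC symbols, and LOC117869916 were also named. QKI, ERBB3, TFAP2A, OLIG1, TP63, NEFL, PRPH, TPPP and DRP2 were named after their values were seen. A gene that the rule names is not reported here. Limma, as an alternative, was fitted to the 4 columns with trend and Benjamini-Hochberg adjustment. The other alternatives were median centring, quantile normalization, other TPM totals, library sizes from the prior counts, log2(TPM + 1), other filters and leaving out each column. CPM and TPM, both without the prior count, were added after seeing the data. Python 3.11.15, scipy 1.17.1, R 4.3.3 and limma 3.58.1 were used.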

Additional observations from a re-analysis of the deposited data

How the results depend on the processing

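MAG, TMEM98 and PLLP stayed above a log2 fold change of 1 and MBP and PMP22 above 0 under every alternative that was run, with ranges of 3.22 to 4.02 for MAG, 1.62 to 2.35 for TMEM98, 1.002 to 1.87 for PLLP, 0.18 to 1.004 for PMP22 and 0.04 to 0.86 for MBP. The low end for PLLP, 1.002 without LOC117869916, was at the threshold, and its replicate 1 counting interval as deposited began at 0.94. The place of PLLP past 1, and with it the count of 3, is therefore not firm. CNP turned to −0.035 with protein-coding genes only in the TPM total and to −0.077 without LOC117869916. Under the alternatives other than limma the number of members above 1 was 3, except that it was 4 without st.19 replicate 1, where PMP22 came to 1.004, a range of 3 to 4 when 1 column was left out. The members' median of 1.16 was 0.77 after quantile normalization, 0.63 on the protein-coding total and 0.59 without LOC117869916, and to between 0.88 and 1.44 when 1 column was left out. None of the 90 alternative values for the 15 ratios changed sign. These came from log2(TPM + 1), no prior count and leaving out 1 column. The columns of a stage are 1 sample and differ by less than sampling noise, so this is no check of the direction. Among all genes, 2605 lay above 1 and 1461 below −1, against 1070 and 4183 without LOC117869916 and 1045 and 3590 on the protein-coding total.

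Treating the 4 columns as independent in limma, 3 members (MAG, TMEM98 and PLLP) passed an adjusted p-value of 0.01 and a log2 fold change of 1, as did 14.4% of genes. With the replicate block 2 members did (MAG and TMEM98, not PLLP), and 7.84% of genes. The replicate differences of the stages correlated across genes with a Pearson's r of 0.28 and a Spearman's rho of 0.19, from 1 sample per stage, so the numbers pair columns and not animals. For replicate 1 reads, the exact binomial test called the same 3 members as limma without the block, and 12.3% of genes. These calls compare columns of 1 sample per stage and not the stages.

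Medians of gene lists turned from 0.13 to −0.39 for the MARVEL domain genes, from 0.48 to −0.044 for the gene regulators, from 0.29 to −0.23 for the MAG ligands and co-receptors and from 0.08 to −0.44 for the Schwann cell markers with the protein-coding total. The epidermal median went from 0.74 over 1 gene to −0.63 over 2 genes under that total, as another gene passed the filter. With quantile normalization the MAG ligands and co-receptors came to −0.29 and the Schwann cell markers to −0.48. Depth limits genes with few reads, among them MAG and TMEM98 at st.19, with 23 to 29 reads per column, and list genes such as MARVELD3, with 2 or 3 reads in every column.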
